A study of Homo sapiens with 24 samples.

Results

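S100A8 and S100A9 bind calcium and pair with each other as a heterodimer. Outside the cell they act as alarmins, signals of damage that surface receptors read. The genes described here are the 10 that encode those receptors and the proteins that pass the signal on. They were named from the known pathway and looked up by symbol in GENCODE, and all 10 were found among 20098 protein-coding genes of chromosomes 1 to 22 and X.

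The samples were MCF10A cells, an established line of non-transformed human mammary epithelium, engineered to carry ER-Src, in which the viral tyrosine kinase v-Src is held inactive by an attached piece of the estrogen receptor until that piece binds its ligand. The cells also expressed S100A8 or S100A9 with a Flag epitope tag, and 4-hydroxytamoxifen (TAM, 1 µM, 24 h) activates the fusion and sets off transformation, whereas ethanol (EtOH) is the vehicle. Flag ChIP-seq gave peak lists for S100A8-Flag in EtOH (n = 2) and TAM (n = 3), and for S100A9-Flag in EtOH (n = 3) and TAM (n = 3), each library labelled as a biological replicate. The question the groups address is where in the genome either protein was found, and whether that differed between vehicle-treated and transformed cells. All groups share the line, the fusion and the antibody, and no peak list from cells without a tag was used here.

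TLR4 is the best known receptor of S100A8/A9 and also reads bacterial lipopolysaccharide, with CD14 delivering the ligand and LY96 (MD-2) holding it in the receptor's pocket. AGER (RAGE) and BSG (CD147, basigin) are separate surface receptors. Inside the cell, TLR4 signals through the adaptors MYD88 and TICAM1 (TRIF), the kinases IRAK1 and IRAK2, and the ubiquitin ligase TRAF6, toward NF-kB and inflammatory genes. What was measured here is the occupancy of DNA at these genes by the tagged proteins, not the expression of the genes nor signalling through the receptors.

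A peak is a stretch of genome with more ChIP reads than the library's own input, and it was counted where its q value was at or below 1e-07 and placed by its summit. Peaks in the gene body or within 50 kb of it were given to the gene's window, and those in the stretch reaching 1500 bp before and 250 bp past a transcription start site (TSS) to its promoter. Read numbers were not in the files, so the depth of each library is unknown. The S100A8-Flag EtOH libraries held 4327 and 4609 peaks. In TAM, S100A8-Flag had 29381, 24117 and 21518 peaks. S100A9-Flag in EtOH had 3595, 1853 and 4596 peaks. S100A9-Flag in TAM had 25494, 23994 and 40735 peaks. Every TAM list was thus longer than every EtOH list, and the part of depth in that difference was not tested.

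The 10 windows together held 8 and 8 peaks in the S100A8-Flag EtOH libraries and 5, 1 and 14 in the S100A9-Flag EtOH libraries. In TAM they held 44, 43 and 34 peaks for S100A8-Flag and 37, 40 and 52 for S100A9-Flag. The groups did not overlap: the mean was 7.20 ± 4.76 with EtOH (SD, n = 5) against 41.7 ± 6.28 with TAM (SD, n = 6). As a share of all peaks of the library, however, the windows held 0.171% ± 0.0905 with EtOH (SD, n = 5) against 0.154% ± 0.0177 with TAM (SD, n = 6), with overlapping ranges.

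The promoter peaks that carry sequence are introduced first, since they belong to the genes themselves. CD14, the co-receptor without a signalling domain of its own, lies on the minus strand of chromosome 5 and had 2 promoter regions. The nearer one, chr5:140012660-140013136 in an intron with its summit at −137 bp from a TSS, had a peak in all 6 TAM libraries and in 1 EtOH library. Its fold enrichment over input was 11.5, 10.8 and 9.30 in the S100A8-Flag TAM libraries. In the S100A9-Flag TAM libraries it was 6.74, 9.45 and 8.20. The EtOH peak, in S100A8-Flag replicate 1, had a fold of 6.22, below all 6 TAM values. The farther region, chr5:140014606-140014876 with its summit at −1458 bp, had a peak in all 6 TAM libraries and, at this threshold, in no EtOH library. Its folds were 10.6, 6.65 and 4.58 for S100A8-Flag and 7.39, 11.6 and 6.92 for S100A9-Flag.

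TICAM1, the adaptor that leads from TLR4 to interferon genes, lies on the minus strand of chromosome 19 and had 1 promoter region, chr19:4831564-4831919 with its summit at −89 bp. Its peak had folds of 5.66 and 6.61 in S100A8-Flag TAM replicates 2 and 3 and of 5.92, 7.82 and 10.2 in the S100A9-Flag TAM replicates. No EtOH library had it at this threshold. TRAF6, the ligase that builds the ubiquitin chains which activate TAK1, lies on the minus strand of chromosome 11. Its promoter region, chr11:36531148-36532071 with its summit at −46 bp, also covers a promoter of the neighbour RAG1. It had folds of 9.11, 5.91 and 7.97 in the S100A8-Flag TAM libraries. The folds were 8.46, 9.57 and 14.5 in the S100A9-Flag TAM libraries, and 7.56 in S100A9-Flag EtOH replicate 1. In S100A9-Flag TAM replicate 1 the summit lay in the region but outside the promoter.

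The sequences at these summits are shown because their summits lie outside exons. Each region also had overlapping peaks in at least 2 TAM replicates of S100A8-Flag and of S100A9-Flag. The BSG promoter region at the TSS has such peaks too, but its summit lies in an exon and its sequence is not shown. Also not shown are the MYD88 region at −1322 bp, with its summit in an exon, and a BSG region at −899 bp. The latter had a peak in 1 TAM library of each protein. The printed sequences are read 5′ to 3′ on the minus strand of GRCh37 (hg19). They reach up to 50 bases on either side of the summit, shortened where an exon begins. Capitals mark a match to the CTCF or the NF-kB motif.
CD14 near, chr5:140012878-140012947: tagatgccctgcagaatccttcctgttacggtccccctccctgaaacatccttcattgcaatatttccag
CD14 far, chr5:140014693-140014793: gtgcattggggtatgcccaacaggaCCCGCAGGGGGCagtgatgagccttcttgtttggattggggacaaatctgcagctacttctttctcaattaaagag
TICAM1, chr19:4831763-4831863: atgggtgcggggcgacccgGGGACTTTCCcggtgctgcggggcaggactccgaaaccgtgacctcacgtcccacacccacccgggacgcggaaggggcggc
TRAF6, chr11:36531823-36531910: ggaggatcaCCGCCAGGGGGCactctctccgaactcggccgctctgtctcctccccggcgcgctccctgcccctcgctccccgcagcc

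The 70 bases printed for the near CD14 site held no match to any of the 10 motifs searched, but the full 101 bases at its summit, which run into an exon, held a STAT match, the one counted below. The far CD14 and the TRAF6 stretches matched CTCF, which binds insulators and loop ends, and the TICAM1 stretch matched NF-kB. On both strands, over 101 bases at the summit of each of the 30322 sites with peaks in at least 2 replicates of a group, the CTCF motif was present at 7.40% and the NF-kB motif at 2.31%. Among the 47 such regions in the windows of the 10 genes, CTCF was matched at 5 and NF-kB at 2. These motifs were chosen after the sequences were seen. The AP-1 motif, TGACTCA or TGAGTCA, was present at 19.4% of all sites and at 6 of the 47 regions. SP1 or KLF (CCCGCCC) was present at 9.91% of all sites and at 4 of the 47, CEBP (TTGCNNAA or TTACNNAA) at 9.80% and 3, and TEAD (GGAATG) at 7.34% and 1. ETS (CCGGAAG) was present at 4.06% of all sites and 1 of the 47, the E-box CACGTG at 3.23% and 3, STAT (TTCNNNGAA) at 2.82% and 1, and CREB (TGACGTCA) at 0.798% and 0. A match describes letters only.

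The first comparison asks whether the windows held more peaks in TAM than in EtOH. CD14, TICAM1, BSG, IRAK1, IRAK2, MYD88 and TRAF6 did, and the other receptor genes TLR4 and AGER and the co-receptor LY96 did not pass the test. The test permuted treatment within each tagged protein (exact, two-sided, 200 arrangements, smallest possible p 0.01), and p values were adjusted over 18764 genes. It called 7 of the 10 members higher in TAM, against 65.3% of all genes tested. It called 0 genes lower. With limma 10 members were called, against 83.8% of all genes. With each replicate number of each tagged protein as a block it was 10, against 81.5%. S100A8-Flag TAM replicate 3 has no EtOH library in its block and added nothing to that treatment difference. The median difference was 3.83 peaks for the members and 2.33 for all genes, and 99.7% of all genes had a positive difference, so the members' direction is that of nearly all genes. When every library was given the same number of top peaks (1853), the exact permutation test called 0 members and 0% of 12750 genes, with 148 genes at an unadjusted p under 0.05. The difference of AGER, BSG, CD14, LY96, IRAK1 and IRAK2 was then slightly negative, that of TICAM1 was 0.75 and that of TRAF6 was 0, and TLR4 and MYD88 had no peak. Of all 12750 genes, 49.1% had a negative difference in that setting and 41.9% a positive one, with a median of 0. The exact permutation test also called 0 members and 0% of 13973 genes in gene bodies without flanks, where 3984 genes and 3 members had an unadjusted p under 0.05, and 3 members with flanks of 10 kb, against 21.5% of all genes tested there.

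**Figure D1:**
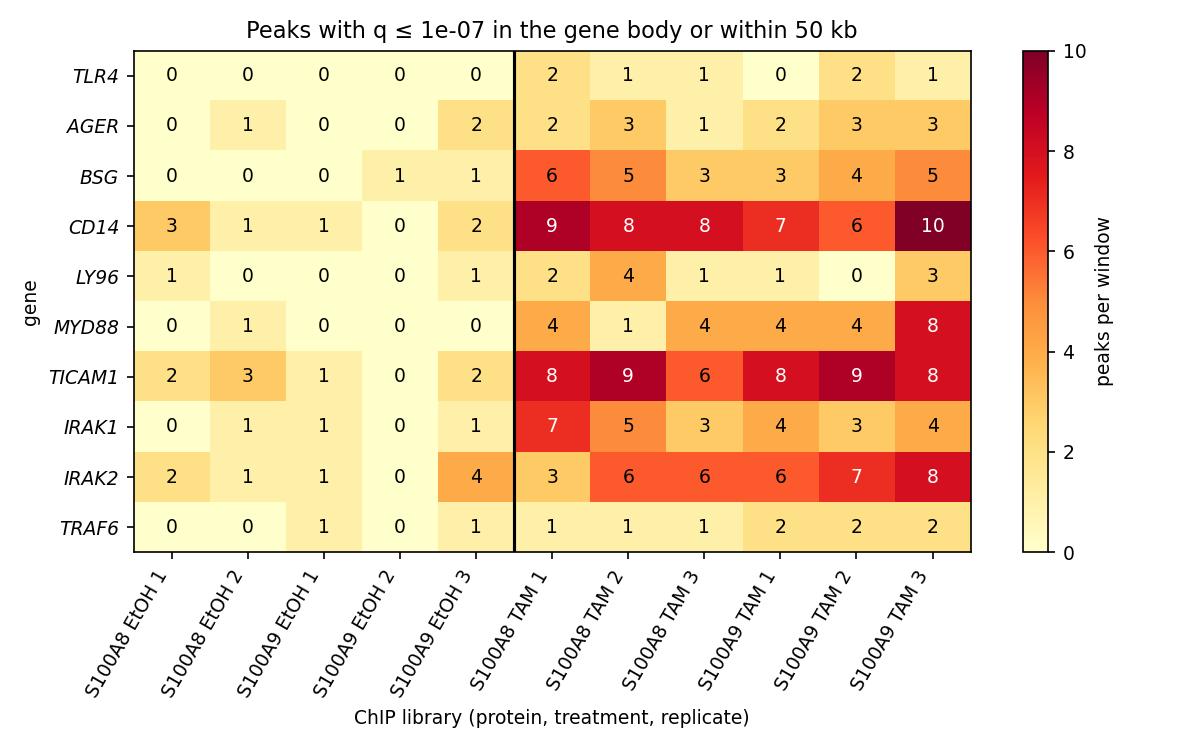
Number of peaks in the gene body or within 50 kb of it for the 10 genes (vertical) in each of the 11 libraries (horizontal), with colour and printed number giving the count. CD14 and TICAM1 reach 10 and 9 peaks in TAM, and TLR4, AGER, LY96 and TRAF6 stay at or below 4.

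Among the receptors, TLR4 had 0 window peaks in all 5 EtOH libraries. In TAM it had 2, 1 and 1 for S100A8-Flag and 0, 2 and 1 for S100A9-Flag. The groups overlapped at 0, in S100A9-Flag TAM replicate 1, and the difference of 1.17 peaks had an adjusted p of 0.0572 by the exact permutation test. Without that library TLR4 was called, with a difference of 1.42 (exact permutation, adjusted p 0.0416), as were 48.1% of all genes. AGER, whose product binds many ligands beside S100 proteins, had 0 and 1 window peaks with S100A8-Flag and 0, 0 and 2 with S100A9-Flag in EtOH. In TAM it had 2, 3 and 1, and 2, 3 and 3. These ranges overlapped as well, and its difference of 1.75 had the same adjusted p of 0.0572 (exact permutation).

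BSG, an immunoglobulin-family glycoprotein that induces matrix metalloproteinases, had 0 and 0 window peaks with S100A8-Flag and 0, 1 and 1 with S100A9-Flag in EtOH. The TAM libraries had 6, 5 and 3, and 3, 4 and 5. Every TAM library was above every EtOH library, and the difference of 4.00 peaks had an adjusted p of 0.0226 (exact permutation). The same separation was found for CD14, TICAM1 and IRAK1, which makes 4 members without overlap, against 38.8% of all genes.

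The co-receptor CD14 had 3 and 1 window peaks with S100A8-Flag and 1, 0 and 2 with S100A9-Flag in EtOH. In TAM it had 9, 8 and 8, and 7, 6 and 10. All TAM values lay well above the EtOH values, with a difference of 6.50 peaks and an adjusted p of 0.0226 by exact permutation. LY96, the secreted partner that TLR4 needs to bind lipopolysaccharide, had 1 and 0, and 0, 0 and 1, peaks in EtOH. Its TAM libraries had 2, 4 and 1, and 1, 0 and 3. The groups overlapped for LY96, and the difference of 1.42 had an adjusted p of 0.167 (exact permutation).

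MYD88, the adaptor shared by most Toll-like receptors, had 0 and 1 window peaks with S100A8-Flag and none in the S100A9-Flag EtOH libraries. In TAM it had 4, 1 and 4 with S100A8-Flag and 4, 4 and 8 with S100A9-Flag. S100A8-Flag TAM replicate 2 matched the highest EtOH value, and the difference of 3.92 peaks had an adjusted p of 0.0365 (exact permutation). The MYD88 call was lost without any of 10 of the 11 libraries, at adjusted p values from 0.0507 to 0.0786 (exact permutation), and was kept only without S100A8-Flag TAM replicate 2. Where it was lost the difference stayed between 3.25 and 4.25 peaks with fewer arrangements to permute, and limma on all libraries gave MYD88 an adjusted p of 6.96e-05. TICAM1 had 2 and 3, and 1, 0 and 2, peaks in EtOH. Its TAM libraries had 8, 9 and 6, and 8, 9 and 8. The lowest TAM value was above the highest EtOH value, with a difference of 6.25 and an adjusted p of 0.0226 (exact permutation).

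The kinase gene IRAK1 had 0 and 1, and 1, 0 and 1, window peaks in EtOH. Under TAM the counts were 7, 5 and 3, and 4, 3 and 4. No TAM value reached down to the EtOH values, and the difference was 3.75 (exact permutation, adjusted p 0.0226). The IRAK1 call was lost at q at or below 1e-10 (exact permutation, difference 2.17, adjusted p 0.149). With flanks of 10 kb IRAK1 and IRAK2 were not called (exact permutation, differences 2.00 and 3.5, adjusted p 0.0702 for each). IRAK2, which sustains the signal after IRAK1, had 2 and 1, and 1, 0 and 4, peaks in EtOH. Its TAM values were 3, 6 and 6, and 6, 7 and 8. S100A9-Flag EtOH replicate 3 was above S100A8-Flag TAM replicate 1, but within each tagged protein the groups were apart, and the difference was 4.42 (exact permutation, adjusted p 0.0226). TRAF6 had the fewest among the members called, with 0 and 0, and 1, 0 and 1, peaks in EtOH and 1, 1 and 1, and 2, 2 and 2, in TAM. Its S100A8-Flag TAM values equalled the higher S100A9-Flag EtOH values, and its difference was 1.17 (exact permutation, adjusted p 0.0226). With every deposited peak the TRAF6 call was lost (exact permutation, difference 2.08, adjusted p 0.0743). It was also lost at q at or below 1e-10 (0.667, adjusted p 0.239) and with flanks of 10 kb (0.833, 0.0858), both by exact permutation. Counting peaks in the gene body or within 50 kb of a TSS also ended it (exact permutation, 1.00, adjusted p 0.0503). On all libraries limma gave TRAF6 an adjusted p of 0.00225.

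As ratios of means, the called members lay between 3.75-fold (IRAK2 and TRAF6) and 20.8-fold (MYD88) higher in TAM, with BSG at 10.8, IRAK1 at 7.22, CD14 at 5.71 and TICAM1 at 5.00. The MYD88 ratio rests on a single EtOH peak, and those of BSG and TRAF6 on 2. Leaving out 1 library was planned for the calls, but its effect on these ratios was added after seeing the data. The ratio of BSG became 17.3 without S100A9-Flag EtOH replicate 2 or 3. The TRAF6 ratio became 6 without S100A9-Flag EtOH replicate 1 or 3, and the IRAK2 ratio became 6 without S100A9-Flag EtOH replicate 3. For MYD88 no ratio exists without S100A8-Flag EtOH replicate 2, since the EtOH mean is then 0. TLR4 was listed at 0 in EtOH and has no ratio. The calls also rested on S100A8-Flag EtOH, which has 2 replicates: without either of them the permutation test called 0 members and 0% of all genes (80 arrangements, smallest p 0.025). At an unadjusted p under 0.05 there were 9125 genes and 6 members without replicate 1, and 9254 genes and 7 members without replicate 2. With limma, an alternative added after seeing the data, 10 members and 80.4% of all genes were called without replicate 1, and 9 members and 80.7% without replicate 2.

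Levels can be compared between genes per length of window. In TAM, CD14 had 7.85 peaks per 100 kb and TICAM1 6.91, at the 97.2 and 95.5 percentile of all genes tested. MYD88 (3.99), IRAK1 (3.96), BSG (3.86) and IRAK2 (3.36 peaks per 100 kb) followed, between the 75.7 and 81.8 percentile, and differed by less than the spread of their libraries. AGER had 2.26, LY96 1.33, TRAF6 1.19 and TLR4 0.968 peaks per 100 kb, the last at the 27.2 percentile. In TAM the median was 3.61 for the members and 1.82 for all genes tested, and in EtOH it was 0.452 and 0.205, so the members' median was above that of all genes under either treatment. The windows also hold other genes, and this difference was not tested. The 39 other pathway genes listed below, 1 of them without a window peak, had a TAM median of 1.88.

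**Figure D2:**
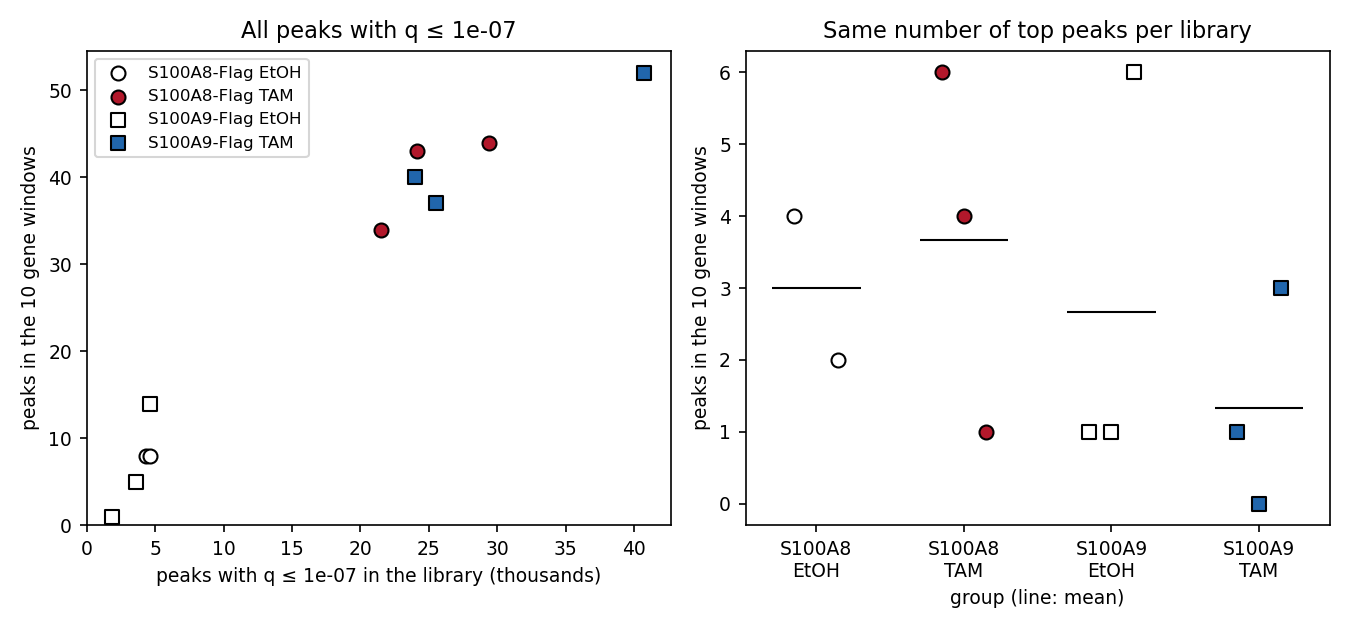
Peaks in the windows of the 10 genes by library. On the left they are plotted against the number of peaks of the library, and on the right after each library was held to its 1853 peaks of lowest q value, where a line marks the mean: EtOH 2.80 and TAM 2.5. The cut on the right lies at a lower q value in every TAM library than in every EtOH library.

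The second question is whether the members took a larger share of a library's peaks in TAM. The exact permutation test on peaks per 10000 peaks of the library called 0 members and 0% of 18764 genes, and 3979 genes and 1 member had an unadjusted p under 0.05. That member was TLR4, with a share of 0 in EtOH and 0.440 ± 0.298 (SD, n = 6) in TAM (exact permutation p 0.04, adjusted p 0.189). With limma 14.5% of genes and 0 members were called. For CD14 the share was 3.25 ± 2.58 with EtOH (SD, n = 5) against 2.97 ± 0.495 with TAM (SD, n = 6). For TICAM1 it was 3.65 ± 2.43 (SD, n = 5) and 3.02 ± 0.680 (SD, n = 6). The members with the most peaks thus had shares that overlapped between treatments. Among the members the largest rise was for MYD88, from 0.434 to 1.47 (exact permutation p 0.14, adjusted p 0.408). The largest fall was for IRAK2, from 3.66 to 2.26 (exact permutation p 0.4, adjusted p 0.724). The median difference in share was −0.278 for the members and 0.0775 for all genes. With equal numbers of top peaks, the 10 windows held 2.80 ± 2.17 peaks with EtOH (SD, n = 5) against 2.5 ± 2.26 with TAM (SD, n = 6).

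The third question concerns the promoters of the members. By libraries with a promoter peak, CD14 had 1 in EtOH and 6 in TAM, BSG 0 and 5, TICAM1 0 and 5, TRAF6 1 and 5, and MYD88 0 and 4. IRAK2 had 1 in EtOH and 2 in TAM, and TLR4 had 0 and 1. AGER, LY96 and IRAK1 had no promoter peak in any library at this threshold, so that 7 members could be tested. With every deposited peak counted, IRAK1 had one in 1 EtOH and 4 TAM lists, and AGER and LY96 had none. CD14 then had one in 4 EtOH and 6 TAM lists and TRAF6 in 3 and 5, so that the treatments lay closer together for both. IRAK2 had 3 and 5, MYD88 2 and 6, TICAM1 1 and 6 and TLR4 0 and 1. The exact permutation test called 0 of the 7 and 0% of 12103 genes, with 2230 genes and 3 members (BSG, CD14 and TICAM1) at an unadjusted p under 0.05. The lowest adjusted p over all genes was 0.216, and limma was not run on promoters. Members with a promoter peak numbered 0 or 1 in each EtOH library and 3 to 6 in each TAM library. Of all genes, 5.88% to 12% had one in the EtOH libraries and 32.9% to 48.3% in the TAM libraries. In at least 2 TAM libraries, 6 of the 10 members had a promoter peak, as did 52.2% of all genes.

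**Figure D3:**
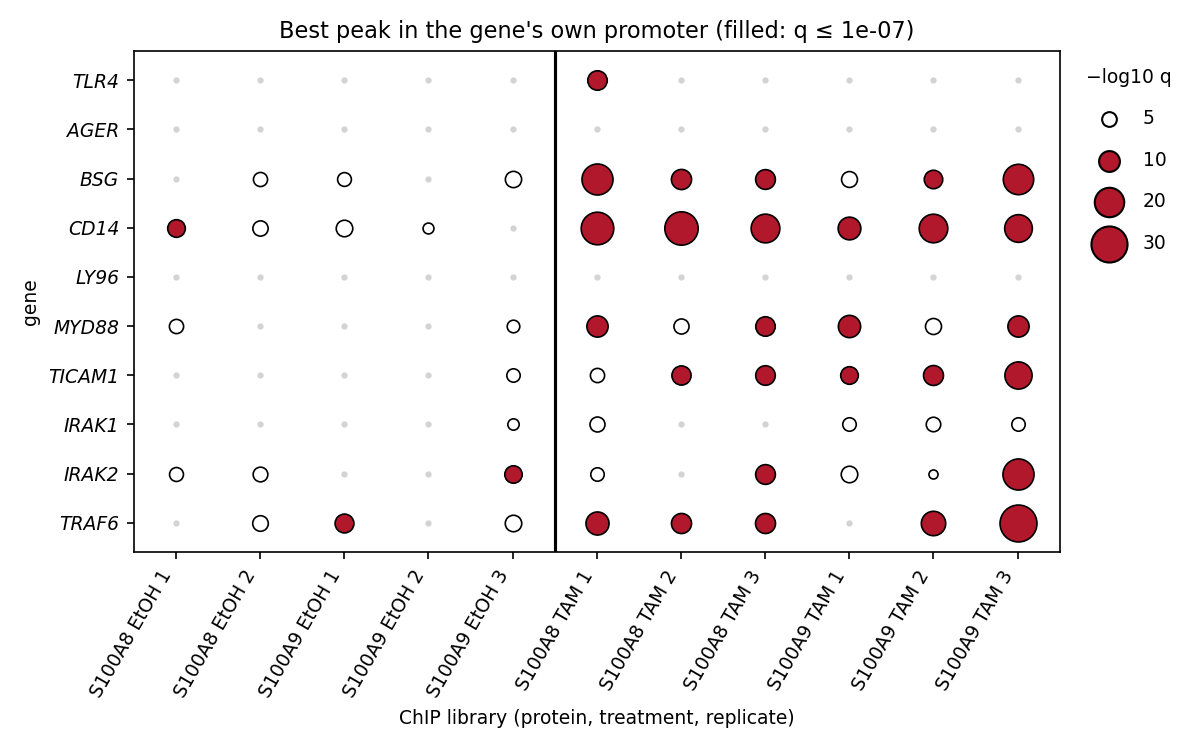
Best peak in the gene's own promoter for each of the 10 genes and 11 libraries. Dot size gives −log10 q, filled dots have q at or below 1e-07, and a grey dot means no peak in the list. CD14 is filled in all 6 TAM libraries, and AGER and LY96 show grey dots throughout.

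The promoter of BSG, chr19:572212-572755 with its summit on a TSS in the 5′ end of the transcript, had folds of 9.67, 7.18 and 7.98 in the S100A8-Flag TAM libraries. For S100A9-Flag, replicates 2 and 3 in TAM had folds of 7.08 and 10.9. All EtOH libraries lacked it at this threshold, but with every deposited peak counted, 3 EtOH lists and all 6 TAM lists held a BSG promoter peak. A second BSG promoter region, chr19:574081-574264 in an intron at −899 bp, had peaks in TAM alone. Its fold was 12.4 in S100A8-Flag TAM replicate 1 and 7.3 in S100A9-Flag TAM replicate 3. The region upstream of MYD88, chr3:38178232-38179160 at −1322 bp, lies in the promoter of its neighbour ACAA1, a peroxisomal thiolase, and had folds of 8.18 and 5.11 with S100A8-Flag in TAM replicates 1 and 3. The same replicates of S100A9-Flag had 8.88 and 7.12. At TLR4, the promoter peak was in S100A8-Flag TAM replicate 1 alone, at a fold of 6.99. A TLR4 region farther upstream, chr9:120458531-120458716 at −7845 bp, had folds of 12.2 and 7.35 in S100A8-Flag TAM replicates 1 and 3. In S100A9-Flag TAM replicates 2 and 3 it had 8.40 and 8.99, and it was in no EtOH library at this threshold.

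A confident site had peaks in at least 2 replicates of a group. In S100A8-Flag TAM, 4 members had one in the promoter: BSG, CD14, TICAM1 and TRAF6, against 33.9% of all 20098 genes. In S100A9-Flag TAM those genes and MYD88 had one, which makes 5, against 40.9% of all genes. A site needs peaks that overlap within the group, and the S100A8-Flag peaks of replicates 1 and 3 upstream of MYD88 did not overlap each other. In either EtOH group 0 members had one, where 4.12% (S100A8-Flag) and 4.77% (S100A9-Flag) of all genes did. Over all groups together it was 5 members and 46.1% of all genes. These groups differ in the number of sites over the genome too, with 1225 for S100A8-Flag EtOH, 1394 for S100A9-Flag EtOH, 18407 for S100A8-Flag TAM and 25133 for S100A9-Flag TAM.

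**Figure D4:**
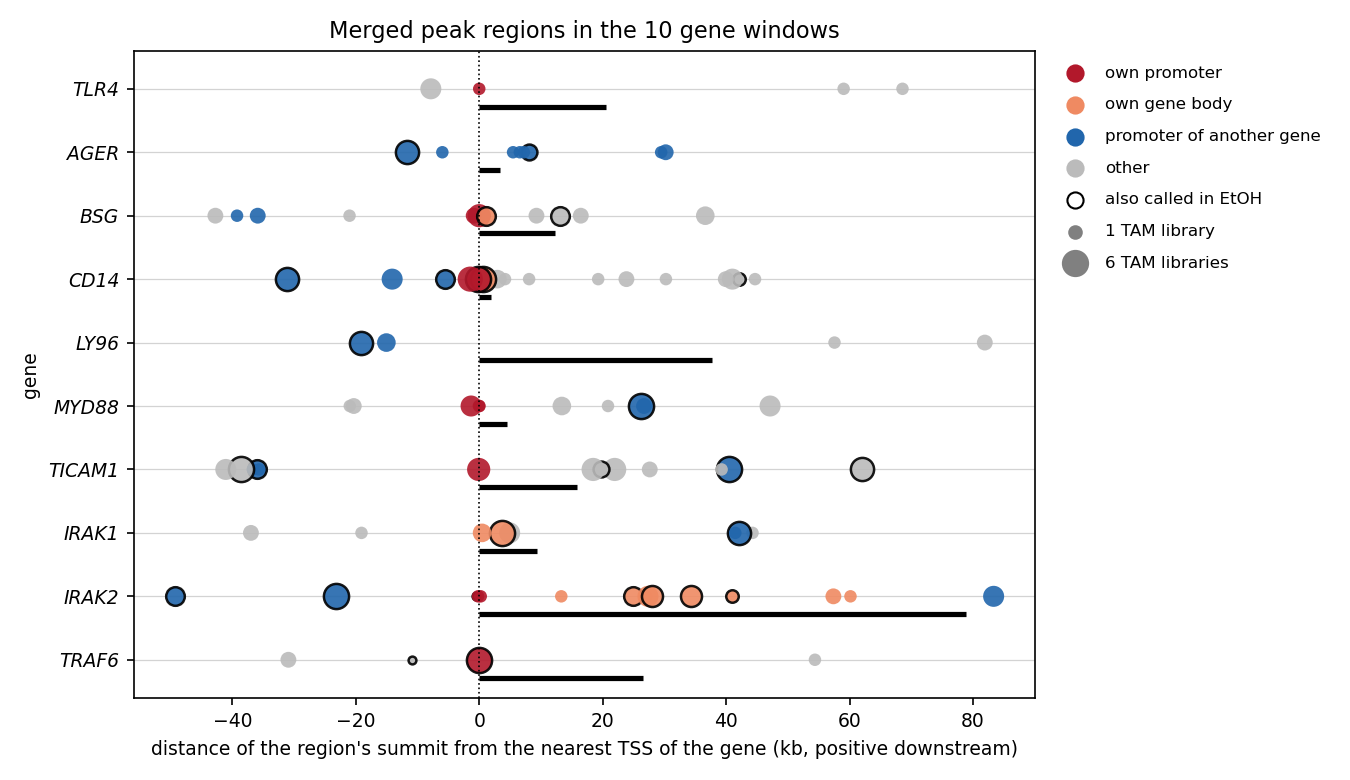
Merged peak regions in the 10 windows by distance from the gene's own TSS in kb. Colour gives the class of region, size the number of TAM libraries, a black ring a peak in EtOH too, and a black bar the gene's length. Of 93 regions, 13 lie in the gene's own promoter and 26 of the rest in the promoter of another gene.

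Most regions in the windows were not in the members' own promoters. Merging peaks over libraries gave 93 regions, of which 13 were in the own promoter, 13 elsewhere in the gene body, 26 in the promoter of another gene and 41 in none of these. Each region was given to 1 class, with the own promoter first. The 26 thus leave out own-promoter regions of MYD88 and TRAF6 that also lie in the promoters of ACAA1 and RAG1. TAM libraries alone held 66 regions, 25 had peaks under both treatments, and 2 had peaks in EtOH alone. Peaks of both tagged proteins fell in 50 regions, those of S100A8-Flag alone in 22 and those of S100A9-Flag alone in 21. However, 34 of the 93 regions had a peak in a single library, which can belong to only 1 protein. Confident sites made up 47 of the regions, and 9 regions had a peak in all 6 TAM libraries. An EtOH peak was present in 23.1% of the regions in the own promoter, 53.8% of those elsewhere in the gene body, 42.3% of those in other genes' promoters and 14.6% of the remaining ones, and the differences were not tested.

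AGER shows the extreme case: all 8 of its regions were in promoters of other genes, and none was in AGER itself. AGER sits in the gene-dense class III part of the major histocompatibility complex, with 10 other protein-coding genes in its window. Confident sites lay at the promoters of PPT2, PRRT1 and GPSM3. For IRAK1, 4 regions were confident, and the one with peaks in all 6 TAM libraries and in S100A9-Flag EtOH replicate 1, chrX:153275771-153276610, was at the 3′ end of the gene. Its folds ran from 5.31 to 8.29 in TAM and stood at 10.1 in the EtOH library. Another IRAK1 region was at the shared promoter of HCFC1 and TMEM187, in 7 libraries, 2 of them EtOH.

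IRAK2 is a long gene of 78827 bp, and its regions were mostly inside its introns. The intronic region at 27343 bp from the TSS had folds of 16.4 and 10.2 in S100A8-Flag TAM replicates 2 and 3 and of 7.59 and 6.08 in S100A9-Flag TAM replicates 1 and 3. Its own promoter had 3 regions with 1 library each, at −449, −190 and 243 bp, so that no position recurred at this threshold. Confident sites in the IRAK2 window also lay at the promoters of VHL, BRK1 and TATDN2, with the VHL site in 8 libraries.

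In the CD14 window, a region in the coding exon at 609 bp had a peak in all 6 TAM libraries and in S100A9-Flag EtOH replicate 3. Its folds were 6.78, 6.42 and 7.14 for S100A8-Flag and 6.95, 7.23 and 5.42 for S100A9-Flag in TAM, all below the 8.25 of the EtOH library. The other confident promoter sites there belonged to TMCO6, NDUFA2, IK and WDR55. The WDR55 site had peaks in 8 libraries, 3 of them EtOH, and was confident in S100A8-Flag EtOH. In the TICAM1 window, sites lay at the promoters of FEM1A and PLIN3, and a region at −38574 bp had peaks in 9 of 11 libraries, 3 of them EtOH. The BSG window held a site at CDC34, the MYD88 window sites at ACAA1 and OXSR1, and the TRAF6 window the one shared with RAG1.

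LY96 resembled AGER in having no peak in its promoter or gene body. Its 4 regions were at the promoter of ELOC, a subunit of elongin (7 libraries), at that of TMEM70 (3 libraries), and at 57567 and 81920 bp from its TSS.

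The fourth comparison asks whether the tagged proteins differed at these genes. The exact permutation test of S100A9-Flag against S100A8-Flag, within treatment, called 0 members and 0% of 18764 genes, with 130 genes and 1 member (TRAF6) at an unadjusted p under 0.05, and limma called 0. TRAF6 had 0.833 more peaks with S100A9-Flag (exact permutation p 0.03, adjusted p 1). A test of whether the TAM difference itself differed between the proteins, with limma, called 0 members and 0% of genes, with 1394 genes and 0 members unadjusted. The largest such value was for MYD88, 1.22 on the log2 scale (limma adjusted p 0.731), with a TAM difference of 2.5 peaks for S100A8-Flag and 5.33 for S100A9-Flag. TICAM1 followed at 1.05 (limma adjusted p 0.736), with differences of 5.17 and 7.33 peaks. For BSG the value was −0.83 (limma adjusted p 0.747), with differences of 4.67 and 3.33 peaks. A difference between the proteins was therefore not detected at these 10 genes with 5 and 6 libraries.

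The other genes of the pathway were counted from 5 lists. Of 39 genes, 38 had a window peak and 25 were called higher in TAM by the exact permutation test, against the same 65.3% of all genes, and 0 were called lower. With equal numbers of top peaks 0 of them and 0% of all genes were called, and at q at or below 1e-10 it was 12 of them and 32% of all genes. Among other Toll-like receptors 4 of 9 were called. TLR5, which reads flagellin, had the most with 5.33 peaks on average in TAM and 2.00 in EtOH, followed by TLR9, the receptor for CpG DNA, with 3.83 and 0.600. TLR2 and TLR8 had 3.00 each in TAM and 0.200 and 0 in EtOH.

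The next list held other surface proteins and DIAPH1, the intracellular formin that binds the cytoplasmic tail of RAGE. All 5 tested genes of it were called, where 65.3% of all genes were, and CD33 had no window peak in any library. DIAPH1 rose from 3.00 to 12.7 peaks. NPTN, a relative of BSG, rose from 0.200 to 5.83, and MCAM from 0.600 to 3.50. Of other adaptors and accessory proteins 4 of 6 were called, with SARM1 at 6.17 peaks in TAM and 0.600 in EtOH, LY86 at 3.50 and 0.200, and TICAM2, which bridges TLR4 to TICAM1, at 3.17 and 0.600. Kinases and ubiquitin enzymes had 8 of 14 called, led by IKBKE with 6.67 peaks in TAM and 0.600 in EtOH, UBE2V1 with 5.83 and 0, and RIPK1 with 5.50 and 1.2. All 4 inhibitors of the pathway were called (all genes, 65.3%), with SIGIRR at 7.67 and 1.40, TNFAIP3 at 3.17 and 0.200, and CYLD at 3.00 and 0.200.

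Peaks were also counted at marker genes of 4 cell types, as window peaks and promoters. Peaks are not expression, so these counts do not test what type the cells are. Genes of basal mammary epithelium were called higher in TAM in 10 of 10 cases, led by LAMB3 with 27.8 peaks in TAM and 2.40 in EtOH. Luminal genes were called in 4 of 6 cases, of which ESR1 is also partly present in the ER-Src fusion. Myeloid genes were called in 5 of 8 cases and fibroblast genes in 2 of 3 tested, with COL3A1 having no peak. These counts stand against 65.3% of all genes called. A promoter peak was present in at least 2 TAM libraries at 9 of 10 basal, 4 of 6 luminal, 2 of 8 myeloid and 1 of 4 fibroblast genes, against 52.2% of all genes. CD14, a gene known from monocytes, had a promoter peak in 6 TAM libraries, where the median was 0 for the myeloid and 5 for the basal markers. Single markers departed from these medians. The myeloid CSF1R and ITGAM had one in 4 and 3 TAM libraries and the other 6 in none, and the basal TP63 had none.

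By the pattern over 11 libraries, the genes on other chromosomes most like CD14 in window peaks were TFAP4, CHD4 and DISC1, each at a summed absolute difference of 6 peaks. For TICAM1, which tied with CD14 for the highest mean of 8 peaks in TAM, they were CHKB at 5 and JPT1 and ZNF511 at 6, where 4 genes stood at or below 6.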

How the data were processed

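The authors made the peak lists by aligning reads to GRCh37 (hg19) with Bowtie2 and calling peaks per library against its own input with MACS2, versions not stated. The deposited fold enrichment of a peak is a ratio of ChIP over input, and the deposited q value is given as −log10 q; the lists reach q 0.05. The deposited positions are in bp. Lists held 9523 to 109395 peaks on chromosomes 1 to 22 and X, and read depth is unknown. Peaks with q at or below 1e-07 were counted per gene of GENCODE 44 lifted to GRCh37. Treatment was compared by an exact permutation test within protein, two-sided by doubling the smaller tail, with Benjamini-Hochberg adjustment over all genes with a peak and calls at adjusted p under 0.05. limma 3.58.1 (R 4.3.3) was run on log2 of the count plus 1. Python 3.11.15, numpy 2.4.6, pandas 2.3.3, scipy 1.17.1, matplotlib 3.10.9 and pysam 0.24.0 were used, and the tests were tested on simulated data. Overlapping peaks (at least 1 bp) were merged into regions.

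Named were all members, from each pathway list the 3 genes with the most TAM window peaks (with ties) and those with none, neighbours with a confident promoter site (up to 5 per window), and the 3 genes most like the member with the most peaks. Markers named beside these were chosen after their values were seen. Members and lists were chosen with earlier results of these data known. Alternatives changed the threshold, list length, window, promoter, filter, test and libraries. Pol II and input samples were not used here.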

Additional observations from a re-analysis of the deposited data

How the results depend on the processing

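The count of 7 members higher in TAM moved with several choices. It was 0 with the same number of top peaks in every library, 0 in gene bodies without flanks and 0 when any window peak counted as 1, and in each of these 0% of all genes were called (exact permutation; unadjusted p under 0.05 for 148, 3984 and 5115 genes). It was 3 with flanks of 10 kb, against 21.5% of all genes. Leaving out each library in turn gave 0 to 7 members, with 0 without S100A8-Flag EtOH replicate 1 and 0 without replicate 2, where 0% of all genes were called and 80 arrangements allow no p below 0.025. The other libraries left out gave 6 or 7 members, against 44.8% to 51% of all genes. The smallest p was then 0.0167 (120 arrangements) without an S100A8-Flag TAM library and 0.02 (100 arrangements) without an S100A9-Flag library. Without S100A9-Flag TAM replicate 1 the 7 members held TLR4 (exact permutation, adjusted p 0.0416) in place of MYD88 (0.0681). With limma, added after seeing the data, the counts without S100A8-Flag EtOH replicates 1 and 2 were 10 and 9, against 80.4% and 80.7% of all genes, and the lone S100A8-Flag EtOH library is then assumed to vary like the other groups. The count was 7 with every peak as deposited (71.2% of all genes). AGER was then called and TRAF6 was not (exact permutation, adjusted p 0.0320 and 0.0743). The count was 5 at q at or below 1e-10 (32%) and 10 with limma (83.8%). It was 6 with peaks in the gene body or within 50 kb of a TSS (48.9%). Libraries with the same replicate number were not treated as paired, since their counts correlated across genes, after removal of group means, at −0.0219 to 0.0102 over 5 pairs. With the replicate block in limma the count was 10 (81.5%).

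With equal numbers of top peaks, 6 differences of single genes turned negative: AGER −0.25, LY96 −0.25, BSG −0.167, IRAK1 −0.167, IRAK2 −0.167 and CD14 −0.0833 (exact permutation p from 0.64 to 1, adjusted p 1). Of all 12750 genes 6262 were negative and 5344 positive there. Equal list length cannot show a change in the number of peaks over the whole genome, and it cut the TAM lists at a lower q value. Over all 24 settings, 170 of 234 values for single members kept direction and side of the threshold, 45 no longer passed, 13 newly passed and 6 turned. Pathway genes called, 25 in the report, were 12 at q at or below 1e-10 (32% of all genes), 0 with equal top peaks (0%) and 32 as deposited (71.2%). The cause was not tested, except that fewer arrangements limit p.

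Members with a confident promoter site, 5 in the report (46.1% of all genes), were 3 at q at or below 1e-10 (33.4%), 1 with equal top peaks (6.45%), 6 as deposited (60.2%), 4 when every replicate was needed (29.2%), 7 when 1 sufficed (60.1%), 5 when peaks had to share 0.5 of the shorter region (45.6%), and 4 to 5 without each library (39.8% to 46.1%). Within 500 bp of a TSS they were also 5 (44.5%), with IRAK1 in place of MYD88. The promoter, share and protein counts stayed at 0 members in the other alternatives run, 0 to 0 without each library. The exception was the share test, which found 1, against 17.4% of all genes, without S100A8-Flag EtOH replicate 2 with limma, an alternative added after seeing the data. The share test with equal top peaks was not run, since it equals the count test. Unknown read depth, 2 to 3 replicates a group and windows that hold other genes' promoters limit what these counts show.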
